A study of Mus musculus with 12 samples.

Results

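The endoplasmic reticulum (ER) folding, secretory and ATF4 response genes examined here were 37 genes of the 49585 in the deposited count table, chosen by name for their roles. They fell into 5 branches, namely 14 ER chaperones and folding factors, 4 genes of ER-associated degradation, 6 transcription factors, 3 genes of the translocon and COPII coat, and 10 ATF4 targets. All 37 were found in the count table and all 37 passed the filter on low counts. The samples were primary osteoblast cultures from the calvariae of C57BL/6J pups taken at postnatal days 3 to 5, with 1 to 3 calvariae making up a replicate. The 4 groups, of 3 libraries each, were Bcl3-/- on day 3, WT on day 3, Bcl3-/- on day 1 and WT on day 1. Every culture, WT included, was in osteogenic medium with 50 µg/mL ascorbic acid and 2 mM β-glycerophosphate, with days counted from the switch to that medium, so there was no culture without induction. The sample codes name 3 cultures per genotype, each sequenced on both days. Bcl3 is an atypical IκB protein, and its loss in these mice is in every cell from conception, not in osteoblasts alone.

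Library totals over genes ranged from 20009732 to 41953891 reads with a median of 31792039. All 12 listed osteoblast markers had reads in the libraries, with sums between 40350 and 82500 CPM. Sums over a list are CPM by library totals, and the CPM of single genes are further scaled by TMM factors. Bcl3 itself (chromosome 7, 19808462 to 19822770, GRCm38) had 10.24, 9.71 and 8.31 CPM in the day 3 libraries labelled Bcl3-/- and 14.8, 15.9 and 12.8 CPM in day 3 WT libraries. This difference was called lower (-0.62 ± 0.12 on the log2 scale, SE, edgeR adjusted p = 0.0086). On day 1 it had 17.5, 19.7 and 19.2 CPM in the libraries labelled Bcl3-/- and 17.9, 21.8 and 17.8 CPM in WT libraries (-0.03 ± 0.12, adjusted p = 0.887), so the reads of the targeted gene did not separate the genotypes on that day. The groups are therefore called by their labels below, and each direction between genotypes rests on those labels.

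Secreted proteins such as the collagens of bone matrix enter the ER through the translocon, are folded there by chaperones and disulfide isomerases, and leave in COPII-coated vesicles. When unfolded protein accumulates, the sensors IRE1, PERK and ATF6 raise the output of chaperone genes through the factors XBP1 and ATF6, and of amino acid supply genes through ATF4, whose translation is raised by phosphorylation of eIF2α. Starvation for amino acids reaches ATF4 by another kinase, so the chaperone and amino acid branches can also move apart. In osteoblasts ATF4 is known for its part in amino acid import and collagen synthesis.

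The promoters of the members were searched for the elements known for these pathways, and since genes are assigned to the pathways partly by such elements, the matches describe the branches and are not independent of how they were chosen. The RefSeq windows (GRCm38.p6) run from 250 bases before to 50 bases after each start site, and 32 of the 37 members matched 1 or more of the 32851 windows. The ER stress response element (ERSE), read on both strands as CCAAT and CCACG with 9 bases of any kind between them, was present in 7 of the 12 chaperone and folding factor genes with a window and in Syvn1. It was present in 0 of the 9 ATF4 targets with a window, and in 0.12% of all windows. The 9 matches are written here 5′ to 3′ on the strand they lie on, with the fixed letters in capitals, because the chaperone branch is defined in textbooks by this element.
Hspa5: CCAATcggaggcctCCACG
Calr: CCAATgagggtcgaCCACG
Hsp90b1, distal: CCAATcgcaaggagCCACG
Hsp90b1, proximal: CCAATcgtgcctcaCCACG
Canx: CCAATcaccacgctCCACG
Pdia6: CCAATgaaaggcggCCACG
Dnajc3: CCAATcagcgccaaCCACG
Creld2: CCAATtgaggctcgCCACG
Syvn1: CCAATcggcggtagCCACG

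The 9 matches lay between positions -212 and -26 from the start site, 6 of them on the strand of the gene, and the 9 bases between the fixed letters held 6 or 7 G or C bases in every match. ERSE-II, which is ATTGG, any base and CCACG, was found in Herpud1 and Dnajb11 and in 0.04% of all windows. The core of the unfolded protein response element, TGACGTGG, was found in Sec24d and Sec23a and in 0.68% of all windows. The C/EBP-ATF response element that ATF4 binds, searched as TGATGNAAN, was found in Asns, Chac1 and Trib3, which are 3 of the 9 ATF4 targets with a window, and in Herpud1. That motif is short, and 3.95% of all windows hold it.

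The 250 bases before the start site are given for 3 chaperone genes with the ERSE in capitals and for 2 ATF4 targets with the C/EBP-ATF response element in capitals, as the members whose RNA levels are described most fully below or that mark the ends of the branches. They lie at chr2:34771840-34772089, plus strand (Hspa5), chr10:86705445-86705694, minus strand (Hsp90b1), chr11:50325674-50325923, minus strand (Canx), chr6:7693210-7693459, minus strand (Asns) and chr2:119350992-119351241, plus strand (Chac1). In Chac1, and for the proximal ERSE of Hsp90b1, the element lies on the other strand, so its letters appear reversed and complemented.
Hspa5: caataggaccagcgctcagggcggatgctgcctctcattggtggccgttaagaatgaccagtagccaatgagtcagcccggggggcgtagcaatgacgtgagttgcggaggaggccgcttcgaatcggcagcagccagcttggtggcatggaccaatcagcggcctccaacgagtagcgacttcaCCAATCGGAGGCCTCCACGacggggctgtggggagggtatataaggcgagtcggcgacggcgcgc
Hsp90b1: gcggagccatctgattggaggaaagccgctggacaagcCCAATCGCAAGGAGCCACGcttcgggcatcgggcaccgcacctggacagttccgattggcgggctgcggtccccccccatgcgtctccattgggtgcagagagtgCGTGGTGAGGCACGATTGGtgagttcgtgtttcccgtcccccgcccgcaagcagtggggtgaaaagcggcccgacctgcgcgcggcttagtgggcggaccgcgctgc
Canx: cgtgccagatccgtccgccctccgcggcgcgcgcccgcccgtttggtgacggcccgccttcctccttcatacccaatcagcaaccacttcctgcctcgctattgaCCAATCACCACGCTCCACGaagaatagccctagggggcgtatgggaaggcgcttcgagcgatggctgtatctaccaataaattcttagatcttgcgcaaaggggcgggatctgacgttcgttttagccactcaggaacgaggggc
Asns: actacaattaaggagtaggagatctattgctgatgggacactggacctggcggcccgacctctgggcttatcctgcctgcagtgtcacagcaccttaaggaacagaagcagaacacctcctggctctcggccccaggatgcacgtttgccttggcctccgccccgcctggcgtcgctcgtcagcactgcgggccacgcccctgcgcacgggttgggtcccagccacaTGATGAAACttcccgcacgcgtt
Chac1: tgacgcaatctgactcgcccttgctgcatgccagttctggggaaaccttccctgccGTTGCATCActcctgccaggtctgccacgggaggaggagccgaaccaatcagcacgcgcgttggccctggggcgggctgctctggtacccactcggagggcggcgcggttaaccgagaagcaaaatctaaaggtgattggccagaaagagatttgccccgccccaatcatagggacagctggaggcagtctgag

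**Figure D1:**
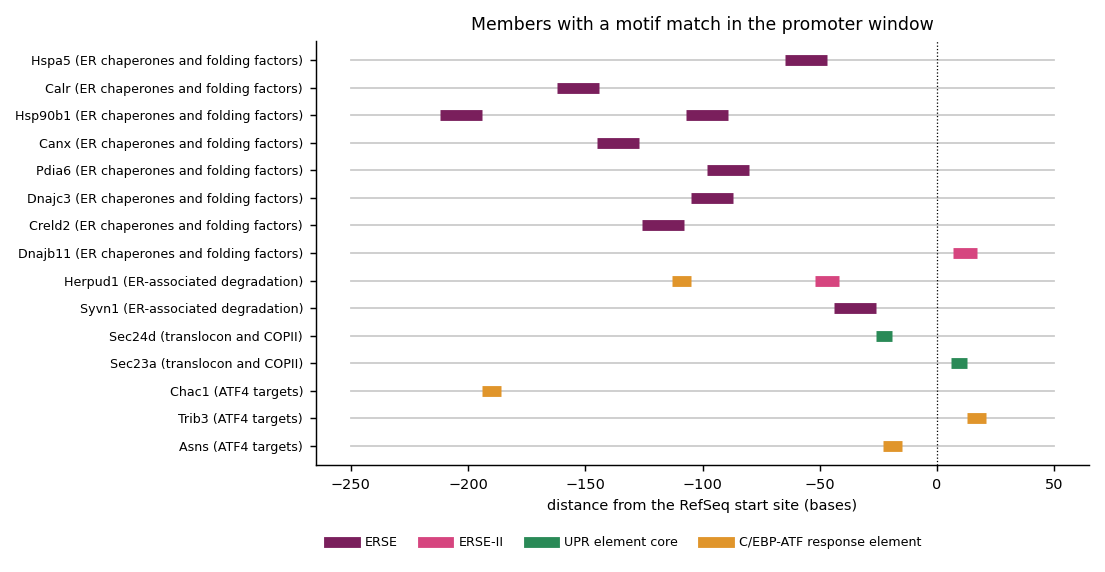
Positions of motif matches in the promoter windows of the 15 members that hold one, as bases from the RefSeq start site (0, dotted line), with 1 line per gene and 1 colour per motif. ERSE matches sit in chaperone genes and Syvn1, and the C/EBP-ATF response element sits in 3 ATF4 targets and Herpud1.

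Levels were compared between genes by the deposited FPKM, which is per kilobase, as means over the 12 libraries of the 36 members with a usable FPKM value. The luminal chaperones led the list. Calr, the calcium-binding lectin chaperone calreticulin, averaged 800.3 FPKM, the disulfide isomerase Pdia3 628 FPKM, the HSP90 family chaperone Hsp90b1 (GRP94) 604 FPKM and Hspa5 (BiP), the HSP70 family chaperone that also restrains the stress sensors, 583 FPKM. The chaperones and folding factors ran from 16.3 to 800.3 FPKM with a median of 196 FPKM. The 9 ATF4 targets with a value ran from 2.44 to 72.97 FPKM with a median of 33.6 FPKM. The lowest member of all was Trib3, a pseudokinase that feeds back on ATF4, at 2.44 FPKM, followed by the glutathione-degrading enzyme Chac1 at 3.54 FPKM. Both had few reads, from 65 to 217 per library for Trib3 and from 64 to 243 for Chac1, against 20993 to 80195 for Hspa5.

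Nearly all members called between day 1 and day 3 were lower on day 3, in both genotypes. In the cultures labelled Bcl3-/- 25 of the 37 members were lower on day 3 and 0 were higher, and in WT cultures 19 were lower and 2 were higher (edgeR quasi-likelihood test, Benjamini-Hochberg adjusted p under 0.05, the threshold and test for every call below). Of all 16318 genes tested, 17.2% were called lower and 16.2% higher in Bcl3-/- cultures, and 17.9% were called lower and 20.6% higher in WT cultures. The median log2 change of the 37 was -0.37 in Bcl3-/- cultures and -0.21 in WT cultures, while the median over all genes tested was 0.00 in both. For the 0 members called higher in Bcl3-/- cultures, the count at an unadjusted p under 0.05 was also 0, and DESeq2 called 0. The p-values measure the spread between these cultures. Because these are bulk cultures, fewer cells of a type and less RNA per cell cannot be told apart.

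**Figure D2:**
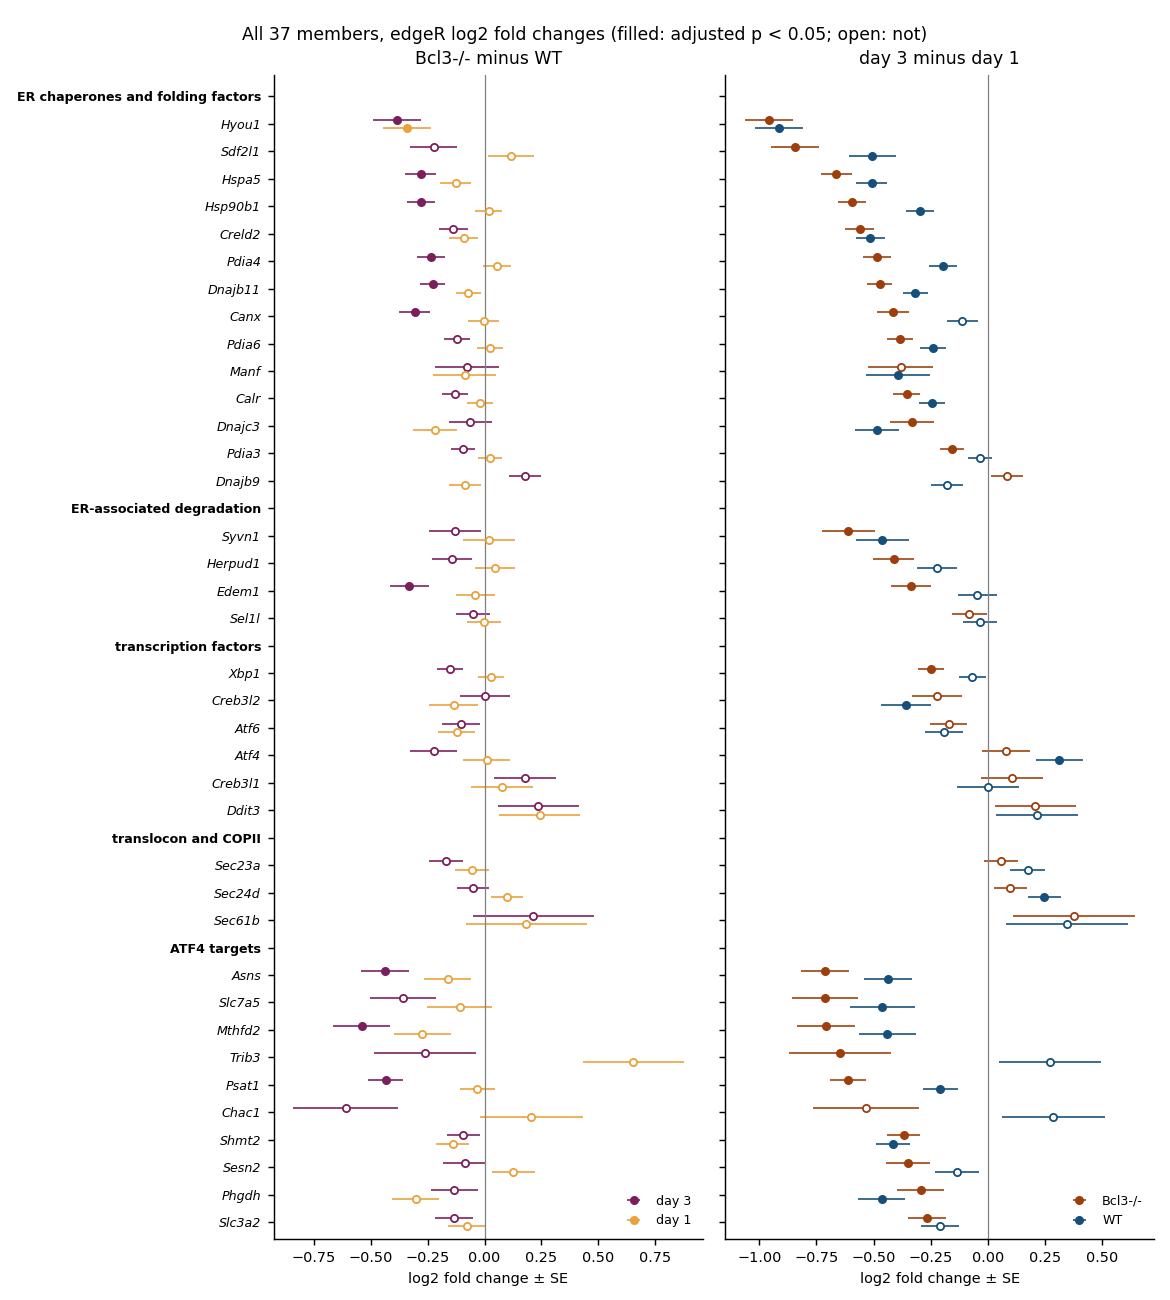
Log2 fold changes with their standard errors for all 37 members, grouped by branch, for Bcl3-/- minus WT (left, day 3 and day 1) and for day 3 minus day 1 (right, Bcl3-/- and WT). Filled points have an adjusted p under 0.05; on the right they lie left of 0 for 12 of 14 chaperones and 9 of 10 ATF4 targets in Bcl3-/- cultures.

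Among the ER chaperones and folding factors 12 of 14 fell over time in Bcl3-/- cultures and 11 of 14 in WT cultures, with a median log2 change of -0.45 in Bcl3-/- cultures and -0.31 in WT cultures. Hspa5 (chromosome 2, 34771970 to 34777547, plus strand, GRCm38) had 992.5, 996 and 1104 CPM on day 3 and 1582, 1693 and 1621 CPM on day 1 in Bcl3-/- cultures. In WT cultures Hspa5 had 1336, 1229 and 1194 CPM on day 3 and 1817, 1826 and 1705 CPM on day 1. The days did not overlap in either genotype, and the log2 change was -0.66 ± 0.07 (SE, edgeR adjusted p = 3.55e-05) in Bcl3-/- cultures and -0.51 ± 0.07 (adjusted p = 0.000144) in WT cultures.

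Hyou1, an ER chaperone that acts as a nucleotide exchange factor for BiP, had the largest fall of the 37 in both genotypes. It had 45.5, 36.1 and 38.0 CPM on day 3 and 73.5, 78.8 and 80.2 CPM on day 1 in Bcl3-/- cultures, and 57.9, 46.4 and 52.0 CPM on day 3 and 105, 100 and 89.1 CPM on day 1 in WT cultures. Its log2 change was -0.96 ± 0.11 in Bcl3-/- cultures (adjusted p = 5.09e-05) and -0.91 ± 0.10 in WT cultures (adjusted p = 4.82e-05), so that its level fell by 48.5% in Bcl3-/- cultures, and in WT cultures it fell by 46.9%. Every day 3 library lay below every day 1 library.

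Hsp90b1 (chromosome 10, 86690209 to 86705509, minus strand) had 1117, 1210 and 1205 CPM on day 3 and 1737, 1822 and 1776 CPM on day 1 in Bcl3-/- cultures, against 1507, 1405 and 1374 CPM on day 3 and 1759, 1793 and 1720 CPM on day 1 in WT cultures. The log2 change was -0.60 ± 0.06 (adjusted p = 3.19e-05) in Bcl3-/- cultures and -0.30 ± 0.06 (adjusted p = 0.00222) in WT cultures. Of its exonic bases 15.7% are shared with other annotated genes, and the strand setting of the counting is not given in the sources used here. Creld2, a disulfide isomerase-like ER protein of skeletal tissues, fell in both genotypes, with a log2 change of -0.56 ± 0.06 in Bcl3-/- cultures (57.04, 57.2 and 53.6 CPM on day 3, 81.99, 80.3 and 85.3 CPM on day 1) and -0.52 ± 0.06 in WT cultures (60.6, 64.6 and 59.5 CPM on day 3, 85.4, 92.7 and 85.8 CPM on day 1).

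The other chaperones that fell in both genotypes were the lectin chaperone Calr, the isomerases Pdia4 and Pdia6, the BiP co-chaperones Dnajb11 and Dnajc3, and Sdf2l1, a partner of Dnajb11. Their log2 changes ran from -0.85 ± 0.10 for Sdf2l1 to -0.33 ± 0.10 for Dnajc3 in Bcl3-/- cultures and from -0.51 ± 0.10 for Sdf2l1 to -0.20 ± 0.06 for Pdia4 in WT cultures. Canx, the membrane-bound lectin chaperone calnexin, and Pdia3, which works with both lectins on glycoproteins, were called lower only in Bcl3-/- cultures. For Canx the day 3 minus day 1 change was -0.42 ± 0.07 in Bcl3-/- cultures and -0.11 ± 0.07 in WT cultures, and the test of that difference did not pass (interaction -0.30 ± 0.10, adjusted p = 0.197). Manf, a secreted ER stress factor, had changes of -0.38 ± 0.14 in Bcl3-/- cultures (adjusted p = 0.054) and -0.39 ± 0.14 in WT cultures (adjusted p = 0.0429). With culture as a replicate block the Bcl3-/- change of Manf passed as well (-0.39, adjusted p = 0.0194).

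Dnajb9 (ERdj4), a BiP co-chaperone that XBP1 induces, stood apart as the chaperone with no call in any comparison. It had 31.7, 34.0 and 34.3 CPM on day 3 in Bcl3-/- libraries, 30.1, 28.4 and 29.9 CPM on day 3 in WT libraries, 29.6, 31.3 and 33.4 CPM on day 1 in Bcl3-/- libraries and 32.7, 34.8 and 32.5 CPM on day 1 in WT libraries. On day 3 all libraries labelled Bcl3-/- were above all WT libraries, by 0.18 ± 0.07 on the log2 scale (adjusted p = 0.127).

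Chaperone genes with and without an exact ERSE match in the window both fell. Over time 7 of the 7 with an ERSE and 4 of the 5 without one fell in Bcl3-/- cultures, with a median log2 change of -0.42 for those with it and -0.47 for those without. In WT cultures 6 of the 7 with an ERSE and 3 of the 5 without one fell, with median log2 changes of -0.30 and -0.20. Dnajb11, counted as without an ERSE, holds an ERSE-II, and Hyou1 and Manf had no window. These are counts over 12 genes, and the difference between them was not tested.

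**Figure D3:**
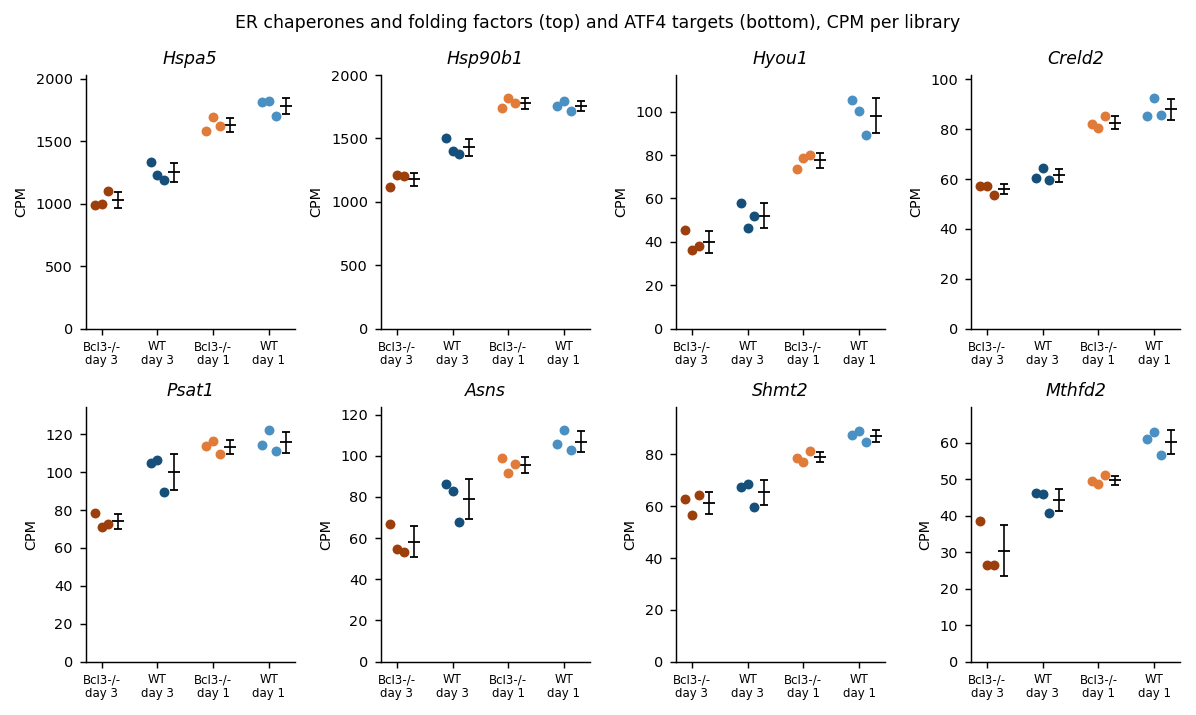
CPM in each of the 12 libraries for 4 ER chaperones and folding factors (top) and 4 ATF4 targets (bottom), by group, with bars for mean ± SD of 3 libraries and all axes starting at 0. In each panel the day 3 Bcl3-/- libraries lie below both day 1 groups, for Hspa5 at 992.5 to 1104 CPM against 1582 to 1826 CPM.

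Among the ATF4 targets 9 of 10 fell over time in Bcl3-/- cultures and 6 of 10 in WT cultures, with a median log2 change of -0.57 in Bcl3-/- cultures and -0.31 in WT cultures. The serine and one-carbon enzymes were part of this fall. Psat1, the aminotransferase of serine synthesis, had 78.6, 71.1 and 72.7 CPM on day 3 and 114, 117 and 109 CPM on day 1 in Bcl3-/- cultures, and 105, 107 and 89.3 CPM on day 3 and 114, 122 and 111 CPM on day 1 in WT cultures. The log2 change of Psat1 was -0.61 ± 0.08 (adjusted p = 0.000136) in Bcl3-/- cultures and -0.21 ± 0.08 (adjusted p = 0.0488) in WT cultures. The interaction for Psat1 was -0.40 ± 0.11 with an adjusted p of 0.119.

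Asns, asparagine synthetase and the textbook target of the amino acid response, had 66.99, 54.7 and 53.01 CPM on day 3 and 99.0, 91.5 and 96.0 CPM on day 1 in Bcl3-/- cultures, and 86.3, 82.9 and 67.8 CPM on day 3 and 106, 112 and 103 CPM on day 1 in WT cultures. The log2 change was -0.71 ± 0.10 (adjusted p = 0.00037) in Bcl3-/- cultures and -0.44 ± 0.10 (adjusted p = 0.00549) in WT cultures, and day 3 lay below day 1 in every library of each genotype.

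Mthfd2, the mitochondrial methylene tetrahydrofolate dehydrogenase, had 38.5, 26.4 and 26.3 CPM on day 3 and 49.4, 48.7 and 51.1 CPM on day 1 in Bcl3-/- cultures, and 46.3, 45.9 and 40.9 CPM on day 3 and 60.9, 62.9 and 56.6 CPM on day 1 in WT cultures. Its change was -0.71 ± 0.13 (adjusted p = 0.00136) in Bcl3-/- cultures and -0.44 ± 0.13 (adjusted p = 0.0149) in WT cultures. Shmt2, the mitochondrial serine hydroxymethyltransferase, changed by -0.37 ± 0.07 in Bcl3-/- cultures (62.8, 56.5 and 64.4 CPM on day 3, 78.7, 77.1 and 81.3 CPM on day 1) and by -0.42 ± 0.07 in WT cultures (67.5, 68.7 and 59.7 CPM on day 3, 87.5, 89.1 and 84.7 CPM on day 1). Unlike Psat1 and Asns, Shmt2 had the larger fall in WT cultures, and its interaction did not pass the test.

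Phgdh, which begins serine synthesis, and Slc7a5, the light chain of the large neutral amino acid transporter, also fell in both genotypes. Slc3a2, the heavy chain of that transporter, Sesn2, a leucine sensor upstream of mTORC1, and Trib3 were called lower in Bcl3-/- cultures and not in WT cultures. Slc3a2 changed by -0.27 ± 0.08 in Bcl3-/- cultures and -0.21 ± 0.08 in WT cultures (edgeR adjusted p = 0.0633). Sesn2 changed by -0.35 ± 0.10 in Bcl3-/- cultures and -0.14 ± 0.10 in WT cultures. Neither interaction passed (adjusted p = 0.911 for Slc3a2 and 0.597 for Sesn2). Trib3 had 4.94, 2.85 and 3.42 CPM on day 3 and 5.49, 5.39 and 6.75 CPM on day 1 in Bcl3-/- cultures, and 5.45, 4.70 and 3.39 CPM on day 3 and 3.80, 3.30 and 4.10 CPM on day 1 in WT cultures. Its changes had opposite signs, -0.65 ± 0.22 (adjusted p = 0.0422) in Bcl3-/- cultures and 0.27 ± 0.22 (adjusted p = 0.376) in WT cultures, with an interaction of -0.92 ± 0.32 that did not pass (adjusted p = 0.234). Chac1 had the same signs, with -0.53 ± 0.23 (adjusted p = 0.0957) in Bcl3-/- cultures and 0.28 ± 0.23 (adjusted p = 0.354) in WT cultures. The ATF4 target count rested in part on single libraries. It was 5 of 10 in Bcl3-/- cultures without day 3 Bcl3-/- replicate 2, and 3 of 10 in WT cultures without day 3 WT replicate 3.

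Among the 6 transcription factors 1 fell and 0 rose over time in Bcl3-/- cultures, and 1 fell and 1 rose in WT cultures, which is near the shares given above for all genes tested. Atf4 (chromosome 15, 80255184 to 80257541, plus strand) had 126, 108 and 90.7 CPM on day 3 and 103, 101 and 105 CPM on day 1 in Bcl3-/- cultures, and 118, 133 and 129 CPM on day 3 and 99.8, 110 and 95.9 CPM on day 1 in WT cultures. Atf4 RNA was thus higher on day 3 than on day 1 in every WT library, by 0.31 ± 0.10 on the log2 scale (adjusted p = 0.0316), on a day when 6 of the 10 listed ATF4 targets were lower. In Bcl3-/- cultures the days overlapped (0.08 ± 0.10, adjusted p = 0.602), and the sign of that value changed in some alternatives. The WT rise of Atf4 was called in 11 of 21 alternatives, and in the 3 fits of limma on FPKM it was not called (adjusted p from 0.0999 to 0.19). Since ATF4 is set largely by translation, its RNA does not measure the protein.

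Xbp1, whose mRNA is spliced by IRE1 to give the active factor, had 207, 207 and 206 CPM on day 3 and 240, 250 and 246 CPM on day 1 in Bcl3-/- cultures, against 225, 244 and 220 CPM on day 3 and 231, 248 and 243 CPM on day 1 in WT cultures. It changed in Bcl3-/- cultures by -0.25 ± 0.06 (adjusted p = 0.0064) and had a change of -0.07 ± 0.06 in WT cultures (adjusted p = 0.389), which was called lower in the 3 fits of limma on FPKM (adjusted p from 0.0208 to 0.0328). Gene counts do not separate the spliced from the unspliced form. Creb3l2, an ER-anchored factor of the OASIS family, had a change of -0.22 ± 0.11 in Bcl3-/- cultures (79.1, 88.0 and 107 CPM on day 3, 102, 110 and 107 CPM on day 1, adjusted p = 0.137) and changed by -0.36 ± 0.11 in WT cultures (98.0, 83.8 and 92.0 CPM on day 3, 130, 116 and 106 CPM on day 1, adjusted p = 0.0203).

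Ddit3 (CHOP), the factor linked to cell death under lasting stress, had no call in any comparison. It had 13.04, 12.4 and 8.62 CPM on day 3 and 10.6, 9.03 and 10.0 CPM on day 1 in Bcl3-/- cultures, and 8.66, 12.2 and 8.28 CPM on day 3 and 7.60, 9.29 and 8.12 CPM on day 1 in WT cultures. Of its exonic bases 10.9% are shared with neighbouring genes, Mars on the opposite strand among them. Atf6, the ER-anchored sensor and factor, had 54.2, 54.9 and 61.3 CPM on day 3 and 60.2, 67.0 and 64.8 CPM on day 1 in Bcl3-/- cultures, and 67.2, 57.02 and 58.9 CPM on day 3 and 72.8, 65.9 and 70.5 CPM on day 1 in WT cultures, with no call either. Creb3l1 (OASIS), known in mice for collagen gene activation in osteoblasts, also had none and ranged from 115 to 182 CPM over the 12 libraries.

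**Figure D4:**
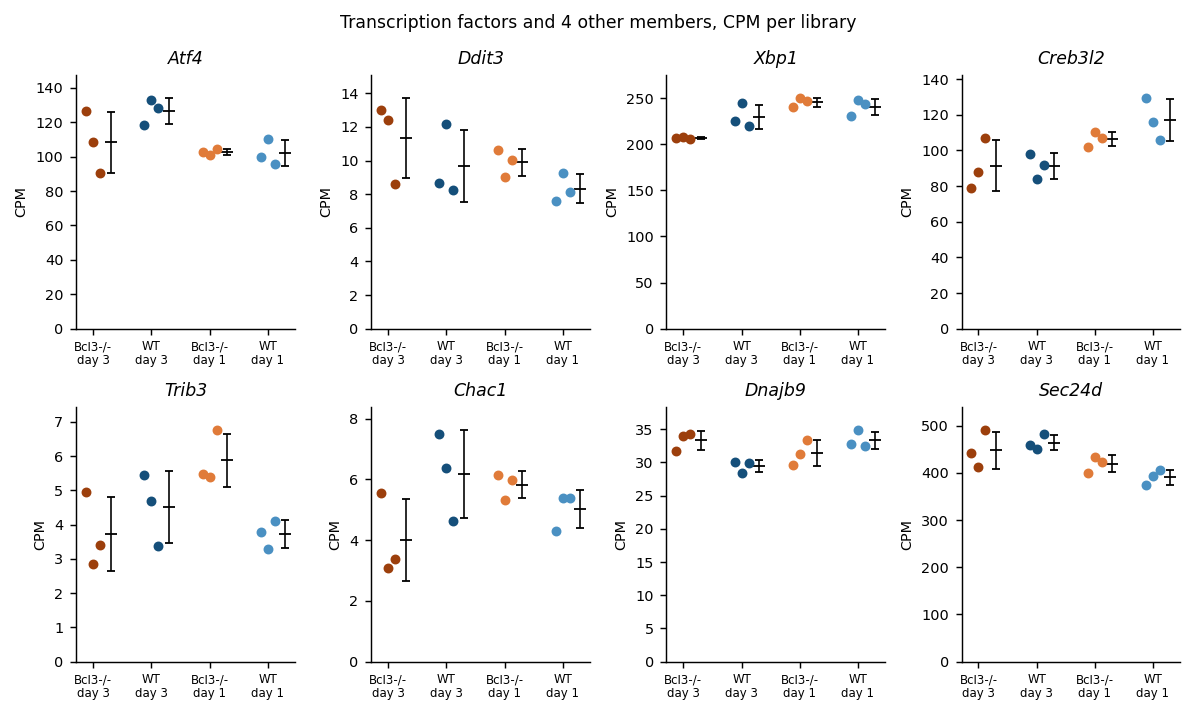
CPM in each library for 4 transcription factors (top) and for Trib3, Chac1, Dnajb9 and Sec24d (bottom), by group, with bars for mean ± SD of 3 libraries and all axes starting at 0. The 3 day 3 WT values of Atf4 lie between 118 and 133 CPM, above the 3 day 1 WT values.

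Among the 4 ER-associated degradation genes 3 fell over time in Bcl3-/- cultures and 1 in WT cultures, the WT count being near the 17.9% of all genes called lower. Syvn1 (HRD1), the ubiquitin ligase of the pathway, had 55.1, 47.7 and 66.9 CPM on day 3 and 85.3, 85.7 and 87.7 CPM on day 1 in Bcl3-/- cultures, and 70.2, 57.02 and 58.2 CPM on day 3 and 78.8, 87.9 and 88.2 CPM on day 1 in WT cultures. It changed by -0.61 ± 0.11 (adjusted p = 0.0018) in Bcl3-/- cultures and by -0.46 ± 0.11 (adjusted p = 0.00702) in WT cultures. Herpud1, which organises the ligase complex, changed by -0.41 ± 0.09 in Bcl3-/- cultures (83.6, 73.8 and 66.2 CPM on day 3, 89.5, 104 and 104 CPM on day 1, adjusted p = 0.00383) and by -0.22 ± 0.09 in WT cultures (84.6, 78.8 and 84.1 CPM on day 3, 94.3, 96.1 and 98.0 CPM on day 1, adjusted p = 0.0642).

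Edem1, a mannosidase-like protein that hands over misfolded glycoproteins, had 128, 129 and 156 CPM on day 3 and 165, 182 and 175 CPM on day 1 in Bcl3-/- cultures (-0.34 ± 0.09, adjusted p = 0.0109), while in WT cultures it had 190, 164 and 166 CPM on day 3 and 184, 179 and 174 CPM on day 1. Sel1l, the adaptor of Syvn1, had no call in any comparison, with 233, 235 and 264 CPM on day 3 and 252, 264 and 259 CPM on day 1 in Bcl3-/- cultures, and 279, 232 and 247 CPM on day 3 and 261, 250.3 and 264 CPM on day 1 in WT cultures.

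Sec24d, the COPII cargo adaptor that skeletal tissues need to export collagen, was the only member beside Atf4 called higher on day 3 than on day 1. In Bcl3-/- cultures it had 441, 412 and 489.9 CPM on day 3 and 399, 435 and 423 CPM on day 1, and the days overlapped (0.10 ± 0.07, adjusted p = 0.322). In WT cultures, where the call was made, it had 460, 449.9 and 481 CPM on day 3 and 374, 394 and 405 CPM on day 1 (0.25 ± 0.07, adjusted p = 0.0163), with all 3 WT libraries higher on day 3. Sec23a, its partner in the inner coat, had 430, 401 and 489 CPM on day 3 and 417, 440 and 411 CPM on day 1 in Bcl3-/- cultures, against 513, 474 and 501 CPM on day 3 and 453, 442 and 424 CPM on day 1 in WT cultures (0.17 ± 0.07, adjusted p = 0.0878). Sec61b, a subunit of the translocon channel, was the least reproducible member, with 130, 105 and 63.6 CPM on day 3 and 86.7, 61.5 and 82.3 CPM on day 1 in Bcl3-/- cultures and 65.6, 114 and 78.1 CPM on day 3 and 50.7, 82.2 and 69.7 CPM on day 1 in WT cultures. The WT rise of Sec24d was called in 15 of 21 alternatives and in none of the 3 fits on FPKM (adjusted p from 0.0724 to 0.12).

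Between the genotypes most calls were made on day 3, and all of them had 1 direction. On day 3, 10 of the 37 members were lower in libraries labelled Bcl3-/- than in WT and 0 were higher, where 5.6% of all genes tested were called lower and 4.78% higher. For the 0 members called higher the count at an unadjusted p under 0.05 was 1, and DESeq2 called 0. The median log2 difference was -0.14 over the 37 and 0.00 over all genes tested. By branch, 6 of 14 chaperones and folding factors were lower (Hspa5, Hsp90b1, Canx, Pdia4, Dnajb11 and Hyou1), 3 of 10 ATF4 targets (Psat1, Asns and Mthfd2) and 1 of 4 degradation genes (Edem1), with 0 of the 6 factors and 0 of the 3 transport genes. The median log2 difference was -0.18 for the chaperone branch and -0.31 for the ATF4 targets, and in the last branch all 10 differences were negative.

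Psat1 had the smallest adjusted p of the set, with 78.6, 71.1 and 72.7 CPM in day 3 Bcl3-/- libraries and 105, 107 and 89.3 CPM in day 3 WT libraries, a log2 difference of -0.44 ± 0.08 (edgeR adjusted p = 0.00545) that is 26.1% less RNA in the Bcl3-/- libraries. Mthfd2 had the largest called difference at -0.54 ± 0.13 (adjusted p = 0.0196), and Asns differed by -0.44 ± 0.10 (adjusted p = 0.0208). None of these 3 overlapped between the genotypes on day 3, nor did uncalled members such as Pdia3 (edgeR adjusted p = 0.267). The chaperone differences were smaller, from -0.39 ± 0.11 for Hyou1 (adjusted p = 0.037) and -0.31 ± 0.07 for Canx (adjusted p = 0.0158) to -0.23 ± 0.06 for Dnajb11 (adjusted p = 0.0221), with -0.28 ± 0.07 for Hspa5 (adjusted p = 0.0231) and -0.28 ± 0.06 for Hsp90b1 (adjusted p = 0.0142) between them. Chac1 had a difference of -0.61 ± 0.23 with few reads and did not pass (adjusted p = 0.113), and Atf4 RNA did not pass either (-0.22 ± 0.10, adjusted p = 0.19).

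The number of day 3 calls depended on a few libraries, while all 10 differences kept their negative sign in every alternative run. Leaving out day 3 WT replicate 1 left 1 call. Leaving out day 3 Bcl3-/- replicate 2 left 2 calls, and day 1 Bcl3-/- replicate 3 left 6. A fit of the 6 day 3 libraries by themselves gave 1. Over all genes the count called lower on day 3 was 387 without that WT library and 376 without that day 3 Bcl3-/- library, against 913 with all 12 libraries. The call of Psat1 held in all 20 alternatives, with log2 differences from -0.51 to -0.39 and adjusted p up to 0.0484, and it was the only one of the 10 that did.

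**Figure D5:**
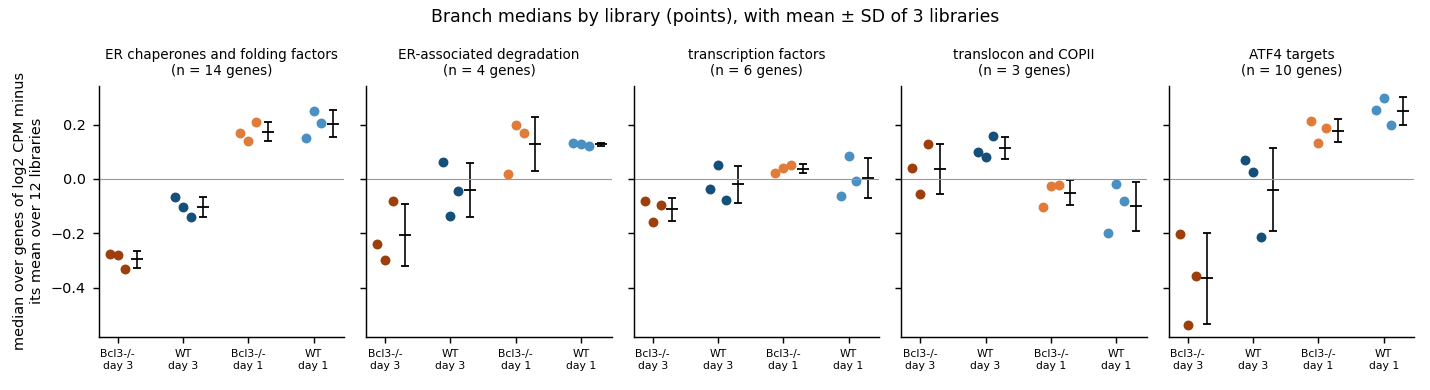
Median over the genes of each branch of log2 CPM minus the gene's mean over the 12 libraries, 1 point per library, with bars for mean ± SD of 3 libraries. In the chaperone branch the day 3 Bcl3-/- libraries lie from -0.33 to -0.28, the day 3 WT libraries from -0.14 to -0.07 and the day 1 libraries of both genotypes from 0.14 to 0.25.

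Seen by library, the chaperone branch had medians of -0.28, -0.28 and -0.33 in day 3 Bcl3-/- libraries and -0.07, -0.10 and -0.14 in day 3 WT libraries, as log2 CPM relative to each gene's mean over the 12 libraries. On day 1 its medians were 0.17, 0.14 and 0.21 in Bcl3-/- libraries and 0.15, 0.25 and 0.20 in WT libraries, so the genotypes overlapped on day 1 and not on day 3. The ATF4 targets spread more within a group, at -0.20, -0.54 and -0.36 in day 3 Bcl3-/- libraries and 0.07, 0.02 and -0.21 in day 3 WT libraries. There the highest Bcl3-/- library reached the lowest WT library, and replicate 2 of Bcl3-/- and replicate 3 of WT were the lowest of their groups.

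On day 1 a single member was called between the genotypes. Hyou1 was lower in Bcl3-/- libraries (73.5, 78.8 and 80.2 CPM) than in WT libraries (105, 100 and 89.1 CPM), by -0.34 ± 0.10 on the log2 scale (adjusted p = 0.0439). It was the 1 member called lower on day 1 and 0 were called higher, where 6.26% of all genes tested were lower and 9.03% higher. The unadjusted p was under 0.05 for 4 members that were lower and 1 that was higher, and DESeq2 called 2 lower and 1 higher. The call of Hyou1 held in 11 of 20 alternatives and was lost in the 3 fits on FPKM (adjusted p from 0.0719 to 0.154), and the medians were -0.05 for the chaperones, -0.09 for the ATF4 targets and 0.00 over all genes.

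Members near the threshold on day 1 ran in opposite directions within the ATF4 targets. Trib3 had 5.49, 5.39 and 6.75 CPM in Bcl3-/- libraries and 3.80, 3.30 and 4.10 CPM in WT libraries, a difference of 0.65 ± 0.22 (adjusted p = 0.0661), with no overlap. Phgdh had 96.7, 93.8 and 89.3 CPM in Bcl3-/- libraries and 110, 123 and 112 CPM in WT libraries, a difference of -0.30 ± 0.10 (adjusted p = 0.0673), also with no overlap. Members far from the threshold, such as Dnajb11 (edgeR adjusted p = 0.432) and Slc7a5 (adjusted p = 0.68), did not overlap on day 1 either. Trib3 was called higher in 5 of 20 alternatives, DESeq2 among them (adjusted p = 0.0319), and Phgdh lower in 4 of 20.

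The direct test of whether the change over time differed between the genotypes called 0 of the 37 members in each direction, where 0.95% of all genes were called lower and 0.172% higher. At an unadjusted p under 0.05 there were 9 members with a negative and 1 with a positive interaction, and DESeq2 called 2 lower, Hsp90b1 and Psat1, and 0 higher. In edgeR the interaction was -0.30 ± 0.09 for Hsp90b1 (adjusted p = 0.152), -0.29 ± 0.09 for Pdia4 (adjusted p = 0.167) and -0.40 ± 0.11 for Psat1 (adjusted p = 0.119). Of the 37 interactions 28 were negative, but none passed the test across all genes. The comparisons by genotype and by time share libraries, so their counts are not independent.

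A wider list of 138 other genes of the same pathways, 137 of them tested, had calls in both directions. Between the genotypes 13 were lower and 1 higher in Bcl3-/- libraries on day 3, where 5.6% of all genes tested were lower and 4.78% higher. On day 1, 5 were lower and 5 higher, both below the shares of all genes tested (6.26% and 9.03%). Over time 17.2% of all genes tested fell and 16.2% rose in Bcl3-/- cultures. In WT cultures 17.9% fell and 20.6% rose. Several counts in the lists below lie near these shares. Of the 31 other ER folding and quality control genes 5 fell and 9 rose over time in Bcl3-/- cultures, and 4 fell and 8 rose in WT cultures. The counts that fell were near or below the shares of all genes tested. Sil1, another nucleotide exchange factor for BiP, rose by 0.51 ± 0.08 in Bcl3-/- cultures (adjusted p = 0.000488) and by 0.65 ± 0.08 in WT cultures (adjusted p = 6.6e-05), opposite in sign to Hyou1. Uggt1, the glucosyltransferase that checks glycoprotein folding, changed by -0.57 ± 0.09 in Bcl3-/- cultures (adjusted p = 0.000706) and by -0.38 ± 0.09 in WT cultures (adjusted p = 0.00627), Txndc11, a thioredoxin-domain ER protein, also fell in both, and Fkbp14, an ER prolyl isomerase of collagen, rose in both.

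Of the 31 other COPII and COPI genes 7 rose and 5 fell in Bcl3-/- cultures, and 12 rose and 4 fell in WT cultures. The counts that fell were near or below the shares of all genes tested, 17.2% in Bcl3-/- and 17.9% in WT cultures. Copb2 and Copz1, subunits of the COPI coat, rose in both genotypes, by 0.26 ± 0.06 and 0.29 ± 0.06 in Bcl3-/- cultures and by 0.43 ± 0.06 and 0.40 ± 0.06 in WT cultures. Mcfd2, a cargo receptor subunit, and Preb, the exchange factor that starts COPII assembly, fell in both. Of the 21 tested translocon and signal sequence genes 8 fell and 1 rose in Bcl3-/- cultures, and 4 fell and 3 rose in WT cultures. The WT count that fell was near the 17.9% of all genes tested. Spcs3 of the signal peptidase (-0.37 ± 0.09, adjusted p = 0.0197) and Rpn1 of the oligosaccharyltransferase (-0.21 ± 0.05, adjusted p = 0.0237) were also lower in Bcl3-/- than in WT libraries on day 3, and Sec62, a translocon partner, rose in both genotypes over time. Ddost, another oligosaccharyltransferase subunit, rose in WT cultures (0.23 ± 0.06, adjusted p = 0.00828).

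Of the 12 UPR sensors and regulators 4 fell and 2 rose over time in each genotype. The count that rose was near the shares of all genes tested, 16.2% in Bcl3-/- and 20.6% in WT cultures. Eif2s1, which encodes eIF2α, and Ppp1r15a, the phosphatase subunit that reverses its phosphorylation, fell in both, and Creb3 and the site-1 protease Mbtps1, which cleaves ATF6, rose in both. On day 1, 2 of the 12 were lower in Bcl3-/- libraries, where 6.26% of all genes tested were lower. They were Eif2s1 (-0.30 ± 0.07, adjusted p = 0.0114) and Ern1, which encodes IRE1α (22.1, 20.4 and 23.7 CPM in Bcl3-/- libraries, 34.2, 29.5 and 30.6 CPM in WT libraries, -0.51 ± 0.13, adjusted p = 0.0181), of which Ern1 is named for its role after its values were seen.

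Of the 42 other ATF4 and amino acid response genes 17 fell and 3 rose over time in Bcl3-/- cultures, and 13 fell and 6 rose in WT cultures. Among all genes tested 17.2% fell and 16.2% rose in Bcl3-/- cultures, and 17.9% fell and 20.6% rose in WT cultures. The counts that rose were below these shares. On day 3, 8 were lower and 1 was higher in Bcl3-/- libraries, where 5.6% of all genes tested were lower and 4.78% higher. On day 1, 4 were higher (Slc38a2, Aldh1l2, Gpt2 and Pck2) and 2 lower (Got1 and Iars1) in Bcl3-/- libraries, named after their values were seen. These day 1 counts are near the shares of all genes tested, 9.03% higher and 6.26% lower. Gars1, glycyl-tRNA synthetase and likewise chosen after its values were seen, had 237, 215 and 246 CPM in Bcl3-/- libraries and 312, 308 and 291 CPM in WT libraries on day 3 (-0.38 ± 0.07, adjusted p = 0.00446), a call that held in all 20 alternatives. Mthfd1l, a partner of Mthfd2 in mitochondrial one-carbon metabolism, had 25.3, 20.4 and 22.6 CPM in Bcl3-/- libraries and 35.3, 33.9 and 29.1 CPM in WT libraries (-0.52 ± 0.10, adjusted p = 0.0078). Pycr1 of proline synthesis went the other way and rose over time in both genotypes, by 0.87 ± 0.09 in Bcl3-/- cultures (adjusted p = 3.62e-05) and 1.04 ± 0.09 in WT cultures (adjusted p = 1.2e-05). Of this list 2 genes had a called interaction, Pck2 and Aldh1l2.

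Genes of cell division, of the mitochondrial genome and of other cell types also differed between the groups. Over time 17.2% of all genes tested fell and 16.2% rose in Bcl3-/- cultures. In WT cultures 17.9% fell and 20.6% rose. In Bcl3-/- libraries 5.6% of all genes tested were lower on day 3 and 6.26% on day 1. Of 15 mitosis and replication genes 15 fell over time in Bcl3-/- cultures and 14 in WT cultures, and 14 were lower in Bcl3-/- than in WT libraries on day 3 and 5 on day 1. Their summed level was 805.5 to 808.7 CPM in Bcl3-/- libraries and 1079 to 1237 CPM in WT libraries on day 3, and 1861 to 1937 CPM in Bcl3-/- libraries and 2214 to 2381 CPM in WT libraries on day 1. The chaperone branch had the same order of genotypes on day 3. On day 1 its library medians overlapped between the genotypes, while these sums did not. The 16 macrophage markers summed to 495.8 to 1009 CPM in Bcl3-/- libraries and 833.9 to 1234 CPM in WT libraries on day 3, and to 445.5 to 484.6 CPM in Bcl3-/- libraries and 389.4 to 605.6 CPM in WT libraries on day 1, with none of the 16 at 0 reads, 2 called lower in Bcl3-/- libraries on day 3, 8 higher and 1 lower over time in Bcl3-/- cultures, and 11 higher over time in WT cultures.

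The 13 mitochondrially encoded mRNAs, often read as a sign of RNA quality, had a median log2 difference of 0.42 between Bcl3-/- and WT libraries on day 3. All 13 differences were positive and 2 were called higher. Among all genes tested 4.78% were higher in Bcl3-/- libraries on day 3 and 9.03% on day 1. Their sums were 3209 to 4559 CPM in Bcl3-/- libraries and 2949 to 3614 CPM in WT libraries on day 3, and 3041 to 3610 CPM in Bcl3-/- libraries and 2946 to 3253 CPM in WT libraries on day 1. Over time 5 of them rose in Bcl3-/- cultures, with a median of 0.55, and 1 rose in WT cultures, with a median of 0.17. Of 7 adipocyte markers 4 were tested and Cidec was at 0 reads in every library. On day 3, 3 of the 4 were higher in Bcl3-/- libraries, where the list summed to 218.3 to 282.1 CPM against 55.82 to 99.33 CPM in WT libraries, and on day 1, 2 were higher, with sums of 95.72 to 114.5 CPM in Bcl3-/- libraries and 33.89 to 46.44 CPM in WT libraries. Over time 3 of the 4 rose in Bcl3-/- cultures and 1 in WT cultures, where 16.2% and 20.6% of all genes tested rose. The WT count is near that share.

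Plasma cells are secretory cells rich in the same chaperones, and of their 6 markers 5 were tested. Over time 5 fell in Bcl3-/- cultures and 1 fell in WT cultures, where 17.2% and 17.9% of all genes tested fell. The WT count is near that share. On day 3, 2 were lower in Bcl3-/- libraries, against 5.6% of all genes tested. Jchain had 5.56, 0.10 and 0.11 CPM on day 3 and 6.62, 28.8 and 38.7 CPM on day 1 in Bcl3-/- cultures, and 12.1, 10.96 and 5.62 CPM on day 3 and 10.8, 14.4 and 9.00 CPM on day 1 in WT cultures. Prdm1, the master factor of that cell type, stayed at or under 0.89 CPM in all libraries, and Sdc1, which other cells also express, made up most of the list's sum of 144 to 289 CPM. The summed osteoblast markers were 77960 to 82500 CPM in Bcl3-/- libraries and 76310 to 82380 CPM in WT libraries on day 3, and 67450 to 69380 CPM in Bcl3-/- libraries and 40350 to 57080 CPM in WT libraries on day 1. Col1a1 and Col1a2, the chains of type I collagen, made up most of these sums, so the sums hide the other markers. Of the 12 markers 4 were higher and 1 lower in Bcl3-/- libraries on day 3, and 5 were higher and 1 lower on day 1. Among all genes tested 4.78% were higher and 5.6% lower on day 3, and 9.03% higher and 6.26% lower on day 1. Alpl, alkaline phosphatase, had 55.5, 57.7 and 55.7 CPM in Bcl3-/- libraries and 10.6, 19.5 and 19.3 CPM in WT libraries on day 3, and 75.6, 125 and 115 CPM in Bcl3-/- libraries and 39.5, 48.7 and 46.8 CPM in WT libraries on day 1, with no overlap on either day. Spp1, osteopontin, had 1600, 1389 and 1094 CPM in Bcl3-/- libraries and 3317, 3799 and 3095 CPM in WT libraries on day 3, again with no overlap, and both markers were chosen after their values were seen. Of 8 smooth muscle markers 5 were lower and 1 higher in Bcl3-/- libraries on day 3, and 4 were lower and 1 higher on day 1. On day 3 osteoclast markers summed to 424.8 to 447.4 CPM in Bcl3-/- and 315.5 to 401.9 CPM in WT libraries. Of the 7 tested on that day, 0 were called higher and 1 lower in Bcl3-/- libraries. Of their differences 4 were negative, with a median log2 difference of -0.19, so the sum does not follow most of the list. Endothelium markers summed to 24.7 to 27.74 CPM in Bcl3-/- and 12.44 to 16.48 CPM in WT libraries. Chondrocyte and skeletal muscle sums overlapped between the genotypes on that day. The part of dividing cells, RNA quality, adipocytes, macrophages, plasma cells, smooth muscle cells, the cells of these other lists and osteoblast marker level in the results was not tested.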

How the data were processed

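RNA was sequenced from 12 libraries, 3 in each of 4 groups, made with a SMART-seq v4 kit that does not mark strand. Per the labels and the study's methods, the authors trimmed reads with Trim Galore, aligned them to GRCm38 with TopHat2 and deposited HTSeq read counts per gene, not normalized. FPKM values, which the authors made with Cufflinks, were deposited in a separate table and used for levels between genes and for alternatives. Versions and the strand setting of the counting are not given in the sources used here. Of each library's reads 12.3% to 14.7% were in 5 entries that name no gene and were left out. Of the FPKM entries, 49 that listed several values for a library were dropped, as was 1 misplaced header line, which left 49318 genes.

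Counts were tested with edgeR 4.0.16 in R 4.3.3 (filterByExpr, TMM factors from 0.951 to 1.05, 1 fit of 4 group means over 12 libraries, glmQLFTest, Benjamini-Hochberg adjustment over 16318 genes, called at an adjusted p under 0.05). The biological coefficient of variation was 13.5%. The test was checked on simulated counts. Gene names were matched to GENCODE M21 for 49326 of 49585 genes. Promoter sequences were taken from RefSeq (GRCm38.p6), whose start sites need not be those of the annotation used for counting.

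The members and lists were chosen with earlier results of these data known. Values by library are given for up to 4 members of each branch with the smallest adjusted p in a genotype or time comparison, and for Hspa5, Atf4, Xbp1 and Ddit3 whatever their values. Further members are given where a count or contrast turns on them, chosen after their values were seen. Of the 138 other pathway genes, at most 2 that rose and 2 that fell are named per list, with exceptions marked. Alternatives were DESeq2 1.42.0, RLE factors, no count filter, limma 3.58.1 on log2(FPKM + 1) or log2(FPKM + 0.1), an FPKM minimum of 1 in 3 libraries, replicate blocks, the 6 libraries compared by themselves, and leaving out each library. No library pair agreed within sampling noise (lowest chi-square per gene 8.6 over 66 pairs). The sample codes pair the 2 days of each culture. Deviations from the group mean correlated between those days at -0.16 to -0.02 in Bcl3-/- cultures and 0.24 to 0.33 in WT cultures.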

Additional observations from a re-analysis of the deposited data

Results flagged for a closer look

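In 2 genes of the wider ATF4 and amino acid response list the change over time differed between the genotypes by the edgeR interaction test. Pck2, the mitochondrial phosphoenolpyruvate carboxykinase, had 62.0, 52.9 and 56.5 CPM on day 3 and 60.2, 63.6 and 55.8 CPM on day 1 in libraries labelled Bcl3-/-, and 68.4, 59.8 and 60.3 CPM on day 3 and 36.8, 40.6 and 44.6 CPM on day 1 in WT libraries. Its log2 change over time was -0.07 in Bcl3-/- cultures and 0.63 in WT cultures, an interaction of -0.69 ± 0.13 (adjusted p = 0.0335). The lone group that stood apart was WT on day 1, and the day 1 genotype difference of 0.56 ± 0.09 (adjusted p = 0.0026) was called in all 20 alternatives. The interaction was called in 6 of 20, and with culture as a replicate block its adjusted p was 0.0542.

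Aldh1l2, the mitochondrial formyltetrahydrofolate dehydrogenase, was named after its values were seen. It had 42.8, 28.7 and 40.8 CPM on day 3 and 38.0, 43.9 and 36.8 CPM on day 1 in libraries labelled Bcl3-/-, and 51.6, 48.3 and 47.6 CPM on day 3 and 19.8, 27.9 and 26.6 CPM on day 1 in WT libraries. Its interaction was -1.06 ± 0.22 (adjusted p = 0.0396), called in 5 of 20 alternatives, and with culture as a replicate block the adjusted p was 0.0634.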

How the results depend on the processing

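Over the 5 comparisons, 0 of the 57 called values of the 37 members changed sign in any alternative, while 34 of the 128 uncalled ones did. In a smaller set followed gene by gene, made of called values and only some of the uncalled ones, 2 reversed, both uncalled. The Atf4 change in Bcl3-/- cultures was -0.0233 in limma on log2(FPKM + 1), with and without the minimum, and -0.0238 on log2(FPKM + 0.1), and leaving out 1 library at a time gave -0.0454 (without day 3 Bcl3-/- replicate 1) to 0.19 (without day 3 Bcl3-/- replicate 3). The Bcl3 difference on day 1 ran from -0.0898 (without day 1 WT replicate 1) to 0.0677 (without day 1 WT replicate 2), and was 0.0124 without day 1 Bcl3-/- replicate 1. The cause was not tested. The day 3 call of Bcl3 was lost in limma on FPKM with either pseudocount (adjusted p = 0.0603 and 0.057). Of the 25 members called lower over time in Bcl3-/- cultures 19 were called in every alternative, of the 21 called in WT cultures (19 lower, 2 higher) 12, of the 10 called on day 3 between genotypes 1, and of the 1 called on day 1 between genotypes 0. In DESeq2 the interaction called 2 members lower (1 chaperone, 1 ATF4 target), against 0. With the 6 libraries compared by themselves, the day 3 genotype fit called 1 member lower (0 chaperones, 1 ATF4 target), and the day 1 fit called 3 lower (2 ATF4 targets) and 1 higher (1 ATF4 target). On day 1, 1 ATF4 target was called higher in DESeq2, without the count filter and with the FPKM minimum, 1 was called lower in DESeq2 and with the FPKM minimum, DESeq2 called 2 members lower, and limma on FPKM called 0 chaperones lower with either pseudocount and with the minimum and 0 members lower with either pseudocount. In all 3 FPKM settings 0 members were higher over time in WT cultures, against 2.

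Leaving out 1 library at a time gave 19 to 25 members lower over time in Bcl3-/- cultures (5 to 10 ATF4 targets, 10 to 13 chaperones), and 13 to 21 lower (3 to 7 ATF4 targets, 9 to 11 chaperones) and 0 to 3 higher in WT cultures. It gave 1 to 10 members lower on day 3 between genotypes (0 to 6 chaperones, 1 to 4 ATF4 targets), and on day 1 0 to 3 lower (0 to 1 chaperone, 0 to 2 ATF4 targets) and 0 to 1 higher (0 to 1 ATF4 target).

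With culture as a replicate block, 26 members were lower over time in Bcl3-/- cultures and 20 in WT cultures. Manf in Bcl3-/- cultures gained its call, with an adjusted p of 0.0194 in edgeR. With a replicate block by title number, which pairs nothing across genotypes by label (correlations -0.06 to 0.04 on day 1 and 0.06 to 0.21 on day 3), Pdia3 in Bcl3-/- cultures lost its call (adjusted p = 0.0521) and Manf gained one (adjusted p = 0.0491). Mcfd2 also lost its call in Bcl3-/- cultures (adjusted p = 0.0656). Apart from these, Pck2 and Aldh1l2, no value followed gene by gene changed its call under a block. With culture as the block, 7 ATF4 targets were lower over time in WT cultures, against 6 without it. The target gained was not among the values followed gene by gene.

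With 3 libraries per group the spread between cultures limits the precision, and Trib3 and Chac1 had the fewest reads, between 64 and 243 per library. The stricter C/EBP-ATF letters, TGATGCAA, were held by 1 of the 9 ATF4 targets with a window, against 3.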
